A study of Mus musculus with 12 samples.

Results

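The genes described here are 10 regulators of G protein signalling, Rgs2, Rgs3, Rgs4, Rgs5, Rgs10, Rgs12, Rgs16, Rgs17, Rgs19 and Rgs20, taken as the rows of the deposited count table that carry these symbols. They are 10 of the 53599 genes in that table and 10 of the 21 Rgs genes it lists. All 10 passed the filter on low counts that left 16210 genes for testing, Rgs10 and Rgs20 with few counts and through their highest group. The members were chosen from results of these same libraries, so their values are given as a description and without p-values. Bulk RNA was sequenced from cells sorted from the livers of mice of genotype WT, in 4 groups with 3 replicates each. In every group the mice had received AAV8-TBG-Cre, an adeno-associated virus in which the hepatocyte promoter TBG drives Cre recombinase, so that EGFP marks hepatocytes and their descendants. From 1 week later they ate a diet with 0.1% DDC, a dihydrocollidine compound that raises porphyrins and injures bile ducts, over 8 weeks. The groups are sort gates of these livers: early (EGFP+ Cd24- Epcam-), intermediate (EGFP+ Cd24+ Epcam-), full (EGFP+ Cd24+ Epcam+) and BEC (EGFP- Epcam+), the last being biliary epithelial cells that carry no hepatocyte label. Each group is thus a sort gate, and its purity limits it as a model. The age of the mice is not given in the labels, nor is whether replicates came from separate mice, so p-values measure only the spread between these samples, which may be technical.

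RGS proteins are GTPase-activating proteins for G alpha subunits. A receptor that binds its ligand loads a G alpha subunit with GTP, and the RGS domain speeds the return to GDP, which shortens the signal to effectors such as adenylyl cyclase and phospholipase C beta. The members belong to subfamilies: Rgs2, Rgs3, Rgs4, Rgs5 and Rgs16 to the small R4 proteins, Rgs17, Rgs19 and Rgs20 to the RZ proteins, and Rgs10 and Rgs12 to the R12 proteins, while the R7 proteins, which work as dimers with the G beta subunit Gnb5, are not among them.

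Libraries held between 15112893 and 19731887 counts. Levels are given in CPM, the usual counts scaled by library size, here after TMM scaling, and 3 counts in 1 library correspond to between 0.128 and 0.273 CPM. The sorted surface proteins followed their gates in RNA, with mean Epcam levels of 0.592, 18.8, 254 and 866 CPM in early, intermediate, full and BEC. The summed level of 8 hepatocyte markers, among them Alb, was 96462 to 100712 CPM in the early libraries and 1998 to 2653 CPM in the BEC libraries, so hepatocyte transcripts were present in every group. The summed level of 8 biliary markers ran from 984 to 1924 CPM in early, where 4 of the 8 had a mean under 1 CPM, to 14408 to 17568 CPM in BEC. Most of it was Spp1, with means of 1237 CPM in early and 12144 CPM in BEC.

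Across the 4 groups the members did not move as a block. Rgs5, Rgs4, Rgs19, Rgs17 and Rgs12 were low in early and higher in intermediate, Rgs2 and Rgs3 were higher in full than in intermediate, Rgs10 was highest in BEC, Rgs20 was highest in intermediate at a low level, and Rgs16 was highest in early. In bulk RNA, fewer cells of a type and less RNA per cell cannot be told apart. A gene was called at a Benjamini-Hochberg adjusted p under 0.05 in edgeR's quasi-likelihood test over all 16210 genes. Between intermediate and early, 7 of the 10 members were called (Rgs4, Rgs5, Rgs12, Rgs17, Rgs19 and Rgs20 higher, Rgs16 lower), where 54.4% of all genes tested were called, 28.7% higher and 25.7% lower. Between full and intermediate, 7 were called (Rgs2, Rgs3, Rgs5, Rgs12, Rgs17 and Rgs19 higher, Rgs16 lower) against 40.7% of all genes, 20.8% higher and 19.8% lower. Between BEC and full, 5 were called (Rgs3 and Rgs10 higher, Rgs4, Rgs5 and Rgs12 lower) against 21.3% of all genes, 10.7% higher and 10.6% lower. That last count was 2 without full replicate 1 and 3 without full replicate 2, BEC replicate 2 or BEC replicate 3. Against early, 8 members were called in full (7 higher, 1 lower) where 71.2% (39.1% higher, 32.1% lower) of all genes were called, and 9 in BEC (8 higher, 1 lower) where 73.1% (40.0% higher, 33.0% lower) were. Against intermediate, 7 were called in BEC (5 higher, 2 lower) where 52.4% (26.3% higher, 26.2% lower) were. Each of the 10 was called in a test of any difference among the 4 groups, as were 75.6% of all genes. Since these contrasts chose the members, nothing is read from the counts.

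The libraries of the paired groups did not overlap for 7 members between intermediate and early, for 9 between full and intermediate and for 6 between BEC and full, where 58.7%, 55.0% and 39.6% of all genes did not overlap. Set against early, 8 members did not overlap in full (74.4% of all genes) and 9 in BEC (74.7%), and 7 did not overlap in BEC set against intermediate (61.0%). The members' median log2 difference was 1.76 from early to intermediate, 0.57 from there to full and 0.18 from full to BEC, beside 0.06, 0.01 and 0.00 over all genes tested. Scaling by total counts alone shifted the median of all genes to 0.72, 0.21 and 0.01 in these comparisons and raised the share of called genes that were higher from 52.8% to 85.6% in the first and from 51.2% to 72.6% in the second. The median of all genes also moved with it from 0.14 to 1.005 for full and from 0.14 to 1.004 for BEC, each set against early, and from 0.00 to 0.20 for BEC set against intermediate. The share of called genes that were higher moved there from 54.9% to 81.8%, from 54.8% to 80.3% and from 50.1% to 66.5%. With that scaling the members' calls in the first comparison were still 6 higher and 1 lower.

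**Figure D1:**
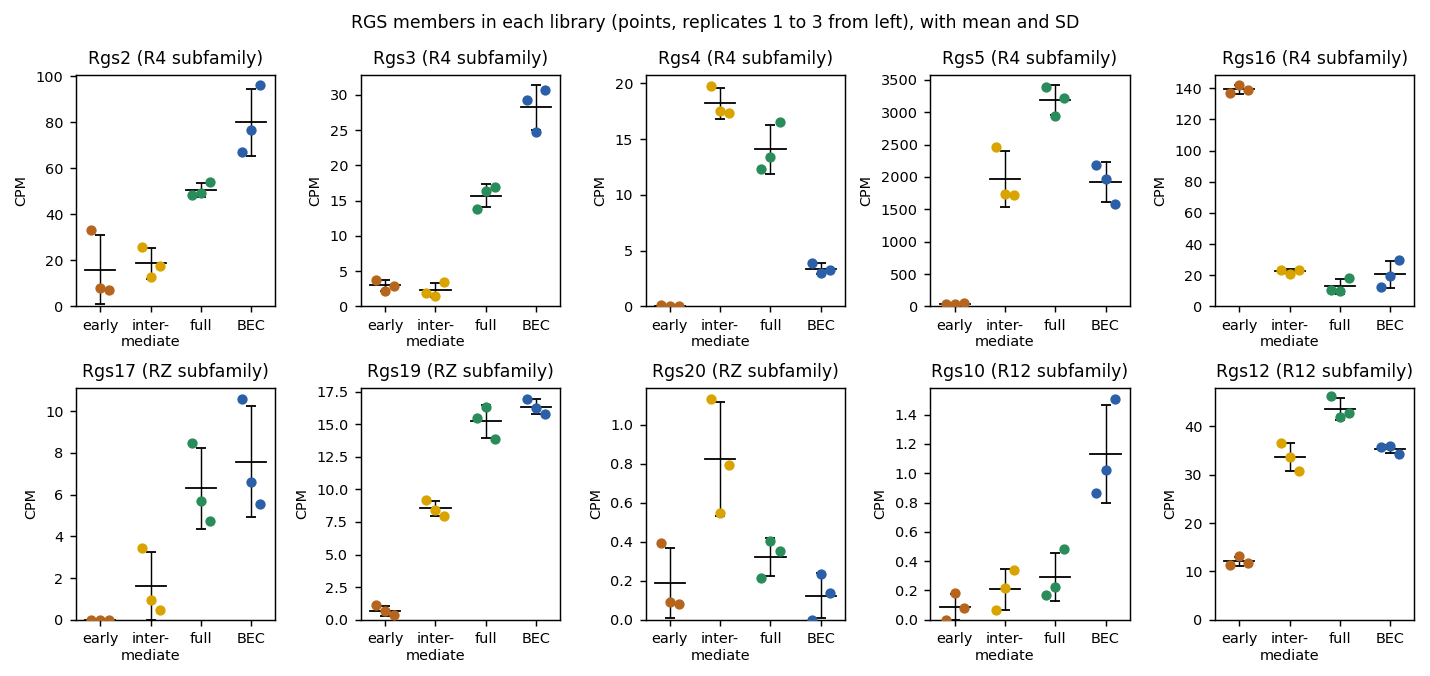
Level of each of the 10 members in CPM (vertical axis, linear, from 0) in the 3 libraries of each group (points, replicates 1 to 3 from the left), with the group mean and SD as bars. Rgs5 lies at 33.5 to 49.4 CPM in early and at or above 1589.5 CPM in the other groups, while Rgs16 lies at 137 to 142 CPM in early and at or below 29.8 CPM elsewhere.

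Rgs5, an R4 member, had the highest level per kilobase of the members in intermediate, full and BEC. It lowers Gq and Gi signalling and is best known from pericytes and vascular smooth muscle. Rgs5 stood at 33.5, 40.1 and 49.4 CPM in the early libraries (replicates 1 to 3), at 2464, 1731 and 1715 CPM in intermediate, at 3398, 2944 and 3215 CPM in full and at 2192, 1973 and 1589.5 CPM in BEC. Every library of the other groups thus lay far above every early library, and the full libraries lay above all others. Ranked by CPM within a library, Rgs5 was between the 4600th and the 5905th gene in early, between the 21st and the 36th in intermediate, between the 8th and the 10th in full and between the 10th and the 20th in BEC. The fitted log2 difference was 5.59 ± 0.21 (SE) for intermediate against early, a 48.1-fold higher level, and 6.25 with total counts alone. It was 0.69 ± 0.18 for full against intermediate and -0.73 ± 0.18 for BEC against full. BEC and intermediate overlapped, with a difference of -0.04 ± 0.17 whose sign turned with other scaling factors (0.01 with RLE factors, 0.16 with total counts alone) and without intermediate replicate 1 (0.15) or BEC replicate 3 (0.08).

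Rgs4, which acts on Gi and Gq and is best known from brain and heart, is the next gene to Rgs5 on chromosome 1, with no gene between them in the RefSeq table. In early it had 1, 0 and 0 counts, or 0.0791, 0 and 0 CPM. It stood at 19.8, 17.5 and 17.4 CPM in intermediate, at 12.3, 13.4 and 16.5 CPM in full and at 3.90, 2.98 and 3.29 CPM in BEC. Rgs4 was thus nearly undetected in early, highest in intermediate and, unlike Rgs5, lower in BEC than in intermediate in every library. The ratio of summed counts per scaled depth was 654 for intermediate over early (95% counting interval 117 to 25842, exact binomial), and rests on the 1 count of early replicate 1. The log2 difference between full and intermediate was -0.37 ± 0.17, not called, though the libraries did not overlap. BEC lay below full by a log2 difference of -2.05 ± 0.19 and below intermediate by -2.42 ± 0.19.

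The promoters of Rgs5, Rgs4 and Rgs16 are shown because these genes had the largest differences between early and intermediate among the R4 members and the first pair are neighbours. Each line gives the 250 bases before the RefSeq start on the gene's strand, in build GRCm38.p6, which is not the build of the counts. Rgs5 is at chr1:169655251-169655500 (plus strand), Rgs4 at chr1:169747643-169747892 (minus strand) and Rgs16 at chr1:153740103-153740352 (plus strand). Capitals mark the exact TATA box letters TATAAA and a CCAAT box, which reads ATTGG on the strand printed.
Rgs5: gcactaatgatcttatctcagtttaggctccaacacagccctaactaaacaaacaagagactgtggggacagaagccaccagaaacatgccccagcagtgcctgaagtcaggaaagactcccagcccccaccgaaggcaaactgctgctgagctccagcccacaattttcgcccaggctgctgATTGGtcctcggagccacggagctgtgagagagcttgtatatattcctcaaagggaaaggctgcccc
Rgs4: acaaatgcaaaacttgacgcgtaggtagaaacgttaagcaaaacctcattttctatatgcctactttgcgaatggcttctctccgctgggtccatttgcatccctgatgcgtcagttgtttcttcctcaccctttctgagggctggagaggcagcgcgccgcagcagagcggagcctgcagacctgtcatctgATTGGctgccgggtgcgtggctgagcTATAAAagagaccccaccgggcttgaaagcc
Rgs16: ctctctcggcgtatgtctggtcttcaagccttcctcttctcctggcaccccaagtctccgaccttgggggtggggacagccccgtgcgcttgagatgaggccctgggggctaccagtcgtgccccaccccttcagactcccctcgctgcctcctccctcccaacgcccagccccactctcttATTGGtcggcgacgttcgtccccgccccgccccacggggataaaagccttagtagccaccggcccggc
The CCAAT box lay 63 to 67 bases before the start in Rgs5, 53 to 57 in Rgs4 and 64 to 68 in Rgs16. Of these 3, TATAAA was found in Rgs4 only, 26 to 31 bases before its start. Other TATA-like letters were not searched and are not marked, such as tatatat near the end of the Rgs5 line. In the window of 300 bases around a start (250 before, 50 after), 37.41% of the 32851 promoters in the table held CCAAT on either strand and 13.62% held TATAAA.

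The RefSeq table held 13 promoters for 9 of the members and none for Rgs20. CCAAT was found for 4 members, Rgs2 besides the 3 shown, and TATAAA for Rgs3 besides Rgs4. The AP-1 motif TGANTCA, in 7.808% of all promoters, was found for Rgs12 and Rgs17, and the grainyhead motif AACNNGTT, in 4.204%, for Rgs3. No member promoter held the TEAD motif GGAATG (14.66% of all), the SOX motif AACAAT (10.72%), the cyclic AMP response element TGACGTCA (1.79%), the HNF4 motif CAAAGTCCA (0.4749%) or the SRF CArG box (1.629%). Both strands were searched, and a match or its absence describes letters in this window, not binding of a factor.

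Since Rgs5 is a pericyte gene, 11 markers of pericytes and smooth muscle were read beside it. Their summed level was 14.3 to 24.3 CPM in early, 69.6 to 111 CPM in intermediate, 226 to 257 CPM in full and 83.6 to 89.4 CPM in BEC, so the sum, like Rgs5, was lowest in early and highest in full. Much of it was Mcam, and without that gene, a sum added after seeing the data, the other 10 markers made 14.2 to 23.5 CPM in early, 46.8 to 51.0 CPM in intermediate, 51.6 to 53.0 CPM in full and 34.0 to 40.7 CPM in BEC. Mcam, a cell adhesion protein, had means of 0.568, 39.3, 185 and 47.7 CPM in early, intermediate, full and BEC. Cspg4, the proteoglycan NG2, had means of 0.250, 1.94, 28.1 and 28.1 CPM. The genes for the ATP-sensitive potassium channel of mural cells, Kcnj8 and Abcc9, were highest in intermediate. Kcnj8 had means of 6.03, 22.1, 8.001 and 0.422 CPM in early, intermediate, full and BEC, and Abcc9 of 4.602, 19.1, 12.2 and 2.05 CPM, both called lower in full than in intermediate.

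Of the 8 markers that were tested, 5 were called higher and 0 lower between intermediate and early, 2 higher and 2 lower between full and intermediate, and 1 higher and 3 lower between BEC and full, beside 28.7% higher and 25.7% lower, 20.8% and 19.8%, and 10.7% and 10.6% of all genes. Cnn1, calponin of smooth muscle, was among those higher in intermediate, at means of 0.118, 0.972, 1.04 and 0.680 CPM in the 4 groups. Notch3, a receptor of mural cells, was the marker called higher in BEC, at means of 1.63, 1.09, 0.753 and 3.19 CPM. The receptor Pdgfrb had a mean of 4.35 CPM in early and of 2.24, 1.41 and 2.57 CPM in intermediate, full and BEC. Acta2, smooth muscle actin, had means of 0.583, 0.481, 0.102 and 0.2003 CPM in the 4 groups, and Myh11, Tagln and Des had means under 1 CPM in each. Of the 11 markers, 7 had a mean under 1 CPM in early, 5 in intermediate, 5 in full and 6 in BEC. The summed level of 10 stellate cell and fibroblast markers was 113 to 329 CPM in early, 66.6 to 193 CPM in intermediate, 52.4 to 87.4 CPM in full and 64.0 to 108 CPM in BEC, with the early and full ranges apart in the direction opposite to Rgs5. Beyond these values, the part of other cells in the Rgs5 level was not tested.

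**Figure D2:**
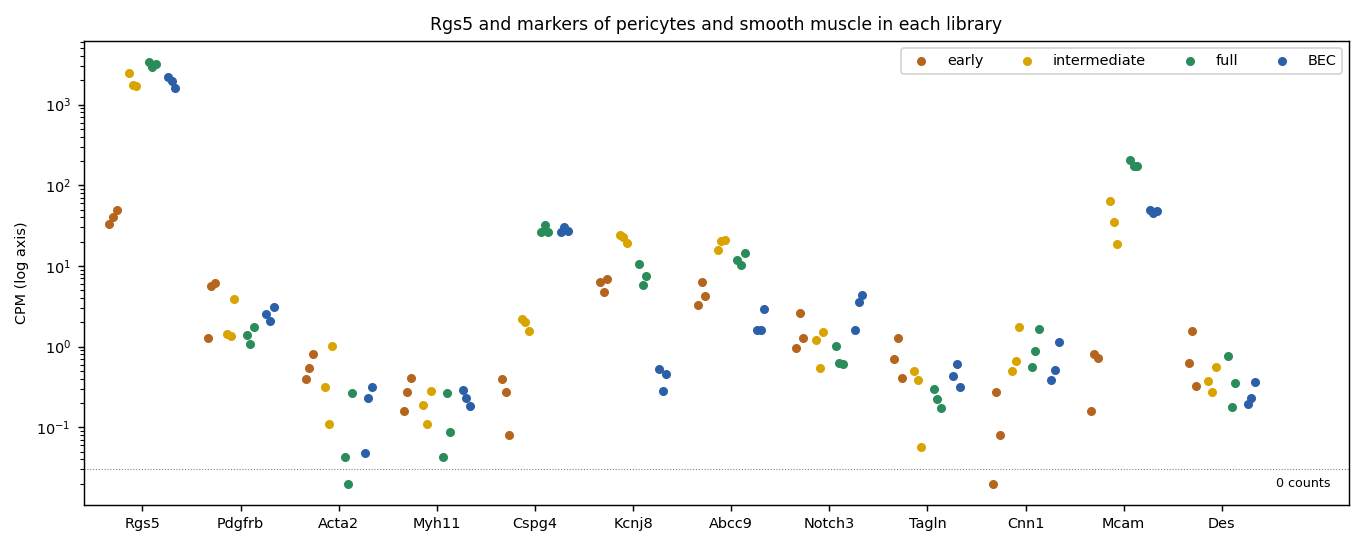
Level of Rgs5 and of 11 markers of pericytes and smooth muscle in CPM (log axis) in each of the 12 libraries, with points below the dotted line at 0 counts. Rgs5 lies at or above 1589.5 CPM in every intermediate, full and BEC library, while Mcam lies at 0.158 to 0.818 CPM in early and 174 to 204 CPM in full, and Pdgfrb at or below 6.15 CPM in all 12.

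Rgs16, which acts on Gi and Gq and in hepatocytes is known as a gene that responds to glucose and fasting, had the opposite pattern. It stood at 137, 142 and 139 CPM in early, at 23.4, 20.9 and 23.4 CPM in intermediate, at 10.3, 10.03 and 18.1 CPM in full and at 12.3, 19.8 and 29.8 CPM in BEC. The early libraries lay close together and above all others, full lay below intermediate in every library, and BEC overlapped both. The log2 difference was -2.63 ± 0.27 for intermediate against early, a 6.17-fold lower level, and -3.44 ± 0.28 for full against early. With total counts alone these were -1.96 and -2.58. Full against intermediate gave -0.82 ± 0.27, which was no longer called without intermediate replicate 1 or 3 or full replicate 1 or 2 (-0.80 to -0.67) or with total counts alone (-0.62). BEC against full gave 0.69 ± 0.27, not called, but called with the replicate number as a block (0.67), with DESeq2 (0.70), with no filter (0.66) and when full replicate 3 (1.02) or BEC replicate 1 (0.95) was left out. The summed level of the hepatocyte markers was also lower in intermediate (14330 to 18811 CPM) than in early and lower again in full (3092 to 4072 CPM). It was lower still in BEC (1998 to 2653 CPM), where each Rgs16 library was above the same-numbered full library. The part of residual hepatocyte RNA in the Rgs16 level was not tested.

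Rgs2, which is selective for Gq and damps vasoconstrictor receptors, was highest in BEC. It stood at 33.1, 7.82 and 7.12 CPM in early, at 25.8, 12.7 and 17.5 CPM in intermediate, at 48.6, 49.4 and 54.1 CPM in full and at 67.2, 76.7 and 96.1 CPM in BEC. Full lay above intermediate and BEC above full in every library, while early replicate 1 stood apart from the other early libraries and above all intermediate ones. The log2 difference was 1.45 ± 0.43 for full against intermediate, not called without intermediate replicate 2 (1.22), and 0.66 ± 0.41 for BEC against full, not called with all libraries but called without early replicate 1 (0.66), with no filter (0.63) and in a fit of the 2 groups compared (0.64). Intermediate against early gave 0.20 ± 0.45. That difference was 1.32 and called without early replicate 1, and between -0.15 and -0.09 without early replicate 2, early replicate 3 or intermediate replicate 1. Full against early gave 1.65 ± 0.44 with all libraries and 2.76 without early replicate 1. In that library Fos and Atf3, genes induced by cell stress and dissociation, were at 288 and 43.1 CPM, the lowest of the early libraries, and replicate 1 was also lowest for both in the other 3 groups. Their part in the Rgs2 values was not tested.

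Rgs3, which acts on Gi and Gq and exists in long and short forms that a gene-level count does not separate, rose late. It stood at 3.80, 2.18 and 2.91 CPM in early, at 1.95, 1.48 and 3.45 CPM in intermediate, at 13.8, 16.4 and 16.9 CPM in full and at 29.2, 24.7 and 30.8 CPM in BEC. Early and intermediate overlapped, and full and BEC lay above them and apart from each other. The log2 difference was 2.77 ± 0.25 for full against intermediate, a 6.82-fold higher level, and 0.85 ± 0.21 for BEC against full, not called without full replicate 1 (0.76). Intermediate against early gave -0.38 ± 0.29, which turned to 0.28 with total counts alone and was -0.81 and called without intermediate replicate 3.

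Among the RZ members, Rgs19, or GAIP, a protein that binds G alpha i and is anchored to membranes by its cysteine string, rose in steps. It stood at 1.11, 0.637 and 0.324 CPM in early, at 9.18, 8.44 and 7.98 CPM in intermediate, at 15.5, 16.3 and 13.9 CPM in full and at 17.0, 16.3 and 15.8 CPM in BEC. Each group up to full lay above the one before in every library, and full and BEC overlapped. The log2 difference was 3.61 ± 0.26 from early to intermediate, 0.84 ± 0.18 from there to full and 0.10 ± 0.17 from full to BEC. With total counts alone the first was 4.27. The summed counts of full and of BEC were the same, 1047 each, and after scaling their ratio was 1.07 (95% counting interval 0.984 to 1.17).

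Rgs17, which prefers Gz and Gi, had 0 counts in all 3 early libraries, which allows 3 counts over the group, or 0.0833 CPM. It stood at 3.46, 0.931 and 0.453 CPM in intermediate, at 8.47, 5.71 and 4.72 CPM in full and at 10.6, 6.62 and 5.53 CPM in BEC. Against the floor of 3 counts over the early group, the level was at least 18.5-fold higher in intermediate, at least 75.9-fold higher in full and at least 90.4-fold higher in BEC. Replicate 1 held 55 of the 80 intermediate counts, and without it, a setting chosen after seeing the data, the level in intermediate was at least 8.35-fold higher. Full lay above intermediate in every library, with a log2 difference of 1.99 ± 0.55, which was 1.70 and not called without intermediate replicate 2 and 3.17 without intermediate replicate 1. BEC and full overlapped, with a difference of 0.27 ± 0.49 that was -0.05 without BEC replicate 1, though each BEC library was above the same-numbered full library and the difference was 0.25, not called, with the replicate number as a block. Replicate 1 had the highest Rgs17 level in intermediate, full and BEC, the replicate number with the lowest Fos and Atf3, and what the numbers mark is not stated.

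Rgs20, the other Gz-selective RZ protein, stayed near the detection limit. It had 5, 1 and 1 counts in early (0.395, 0.0909 and 0.0809 CPM), 18, 10 and 14 in intermediate (1.13, 0.548 and 0.792 CPM), 5, 9 and 8 in full (0.213, 0.401 and 0.350 CPM) and 0, 5 and 3 in BEC (0, 0.233 and 0.137 CPM). The intermediate libraries lay above all others, and early, full and BEC overlapped. The log2 difference was 2.05 ± 0.74 for intermediate against early. It was no longer called without early replicate 2, early replicate 3, intermediate replicate 1 or intermediate replicate 3 (1.69 to 2.07) and was 3.16 without early replicate 1. BEC against intermediate gave -2.65 ± 0.70, and -3.43 without BEC replicate 2, a difference from the group through which Rgs20 passed the filter.

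Of the R12 members, Rgs12, a large protein that carries PDZ and GoLoco motifs beside its RGS domain, was present in every group. It stood at 11.4, 13.1 and 11.8 CPM in early, at 36.7, 33.6 and 30.8 CPM in intermediate, at 46.2, 42.0 and 42.8 CPM in full and at 35.8, 35.9 and 34.3 CPM in BEC. Early lay below all other libraries, full above all, and intermediate and BEC overlapped, the same order as for Rgs5 at a far smaller range. The log2 difference was 1.48 ± 0.10 from early to intermediate, a 2.78-fold higher level, and 0.38 ± 0.09 from there to full. With total counts alone the first was 2.14. BEC against full gave -0.31 ± 0.09, which was no longer called when any one of the 3 full or 3 BEC libraries was left out (-0.34 to -0.27) or with no filter (-0.34).

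Rgs10, a small Gi regulator known from macrophages and microglia, had few counts in the EGFP+ groups. It had 0, 2 and 1 counts in early (0, 0.182 and 0.0809 CPM), 1, 4 and 6 in intermediate (0.0629, 0.219 and 0.340 CPM), 4, 5 and 11 in full (0.170, 0.223 and 0.481 CPM) and 18, 22 and 33 in BEC (0.867, 1.03 and 1.51 CPM). The BEC libraries lay above all others, and the other groups overlapped, with a ratio of summed counts of 2.55 for intermediate over early (95% counting interval 0.673 to 14.2). Within each replicate number the level rose at every step, on few counts, and replicate 1 was lowest in each group. The log2 difference between BEC and full was 1.94 ± 0.55, no longer called without full replicate 1, full replicate 2, BEC replicate 2 or BEC replicate 3 (1.66 to 2.003). The summed level of 9 macrophage markers was 24.5 to 26.2 CPM in early and 30.2 to 38.4 CPM in intermediate. It was 65.5 to 92.0 CPM in full and 132 to 153 CPM in BEC. Most of that rise was Csf1r, with means of 3.94, 24.6, 67.8 and 127 CPM in the same order. Means of Cd68 were 13.96, 2.74, 1.62 and 3.46 CPM in early, intermediate, full and BEC, those of Lyz2 2.25, 2.52, 2.54 and 3.98 CPM, and 4, 4, 3 and 1 of the 9 markers had a mean under 1 CPM. The part of macrophage RNA in the Rgs10 level was not tested.

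**Figure D3:**
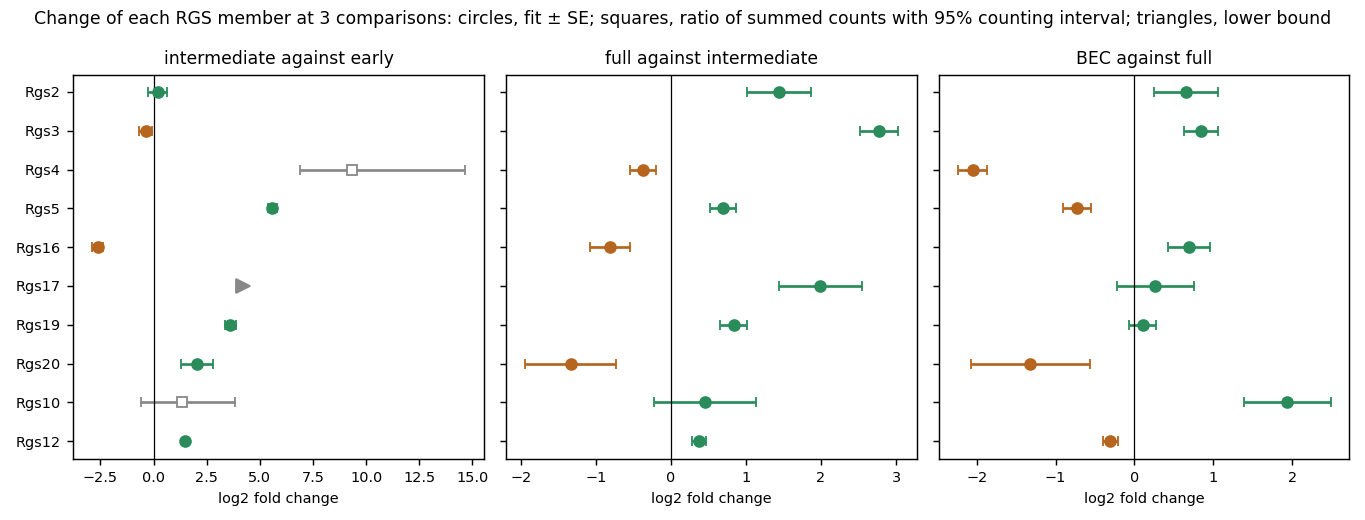
Log2 fold change of each member (rows) between successive groups: circles are the fit with its SE, squares the ratio of summed counts with its 95% counting interval where early had 1 to 3 counts, and the triangle a lower bound against 0 counts; green is higher and brown lower. From early to intermediate, Rgs5, Rgs19 and Rgs12 lie at 5.59, 3.61 and 1.48 and Rgs16 at -2.63, and the sign of Rgs3 turns with scaling by total counts alone.

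Levels of different members were compared per kilobase of mean transcript length (GENCODE M21), as a share of the summed level of all 21 Rgs genes in a library. In early, Rgs16 made up 60.1% ± 6.19 (SD, n = 3) of that sum, Rgs5 17.3% ± 4.54 and Rgs2 12.2% ± 10.2. The Rgs2 share was 23.9% in early replicate 1 and 6.30% on average without that library, a setting chosen after seeing the data. In intermediate, Rgs5 made up 92.4% ± 0.490 and Rgs16 1.12% ± 0.193. Rgs5 held 92.0% ± 0.641 in full and 84.7% ± 3.65 in BEC, where Rgs2 was second at 6.97% ± 2.15. The identity of the most abundant Rgs transcript thus changed from Rgs16 in each early library to Rgs5 in each other library. The summed level itself was 99.7 ± 9.11 CPM per kilobase in early, 885 ± 187 in intermediate, 1437 ± 94.2 in full and 937 ± 111 in BEC. With the longest transcript as length, the Rgs5 share was 12.7% in early and 93.2% in full, and the early shares of Rgs16 and Rgs2 were 75.4% and 6.56%.

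**Figure D4:**
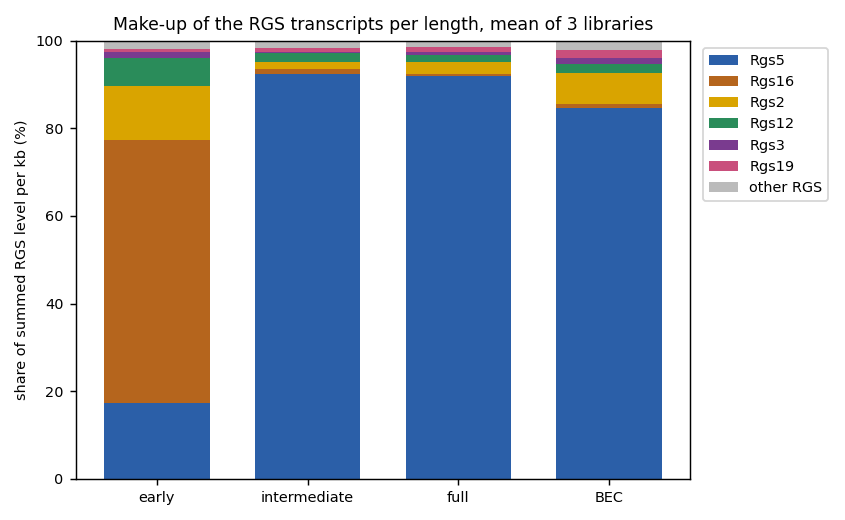
Share of each Rgs gene in the summed Rgs level per kilobase, in percent (vertical axis), as the mean of the 3 libraries of each group (bars). Rgs16 fills 60.1% of the early bar, and Rgs5 fills 92.4%, 92.0% and 84.7% of the intermediate, full and BEC bars.

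The genes whose log2 CPM followed a member most closely over the 12 libraries were listed as a description, among genes with a mean of at least 10 CPM in their highest group. The libraries share groups and scaling, so these correlations mostly reflect group means. For Rgs5 the nearest were Flna (Pearson r = 0.997), the actin cross-linker filamin A, and Cdsn and Gm16011 (both 0.996). Rgs4 was nearest to the tubulin genes Tubb5 (0.992) and Tubb2b (0.989) and to Nipsnap2 (0.991). Rgs16 was nearest to Anapc13 (0.988), Kyat1 (0.979) and Chchd3 (0.978), all highest in early. Rgs12 was nearest to Lpcat1, Rhobtb3 and Cdsn (0.997, 0.996 and 0.996), Rgs19 to Ptpn14, Apaf1 and Tmem231 (0.995, 0.995 and 0.994) and Rgs17 to Gnpda2, Dpysl4 and Ctnna2 (0.994, 0.991 and 0.990). Rgs3 was nearest to Ildr1, Ctse and Macc1 (0.977, 0.975 and 0.974), which, unlike Rgs3, had means at or below 0.0587 CPM in early and intermediate. Rgs2 was nearest to Acvr1b, Cdh3 and Lrrc8d (0.973, 0.972 and 0.969), Rgs10 to Lmtk2 (0.971) and Rgs20 to Khnyn (0.930). Among the members themselves, r was 0.993 between Rgs5 and Rgs12, 0.948 between Rgs5 and its neighbour Rgs4, and -0.966 between Rgs5 and Rgs16.

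Of the other 11 Rgs genes, 2 passed the filter on low counts, both of the R7 subfamily. Rgs11 had means of 1.13 ± 0.636, 5.24 ± 2.46, 16.7 ± 1.17 and 17.5 ± 1.41 CPM (SD, n = 3) in early, intermediate, full and BEC. It rose from early to intermediate by a log2 fold change of 2.19 ± 0.39 (edgeR adjusted p = 0.000294) and again to full by 1.68 ± 0.29 (edgeR adjusted p = 0.000409), with no overlap of libraries. Rgs9 was not called in these comparisons, at a mean of 2.10 ± 0.576 CPM in its highest group, full. Genes for partners of R7 proteins were measured too. Gnb5, the G beta subunit that R7 proteins need for stability, rose from 0.789 ± 0.350 to 9.25 ± 1.85 CPM between early and intermediate (log2 fold change 3.55 ± 0.30, edgeR adjusted p = 3.00e-07). Rgs9bp, which anchors R7 dimers at the membrane, rose from 3.29 ± 0.380 to 8.99 ± 1.75 CPM between intermediate and full (1.45 ± 0.30, edgeR adjusted p = 0.00145). Per kilobase, mean Rgs11 in full was 11.5 CPM, between Rgs19 at 15.98 and Rgs3 at 7.86.

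Lists of other genes of the pathway, 116 genes of which 84 were tested, were read in the same fit. Beside their counts stand the shares of all genes tested, which were 28.7% higher and 25.7% lower between intermediate and early, 20.8% and 19.8% between full and intermediate, and 10.7% and 10.6% between BEC and full. Between intermediate and early, 36 rose and 14 fell, with a median log2 fold change of 0.36 (0.31 with genes at 0 counts set to their bound). Between full and intermediate, 26 rose and 17 fell (median 0.12), and between BEC and full, 11 rose and 20 fell (median -0.00). Calls among the first numbered 58 higher and 8 lower with total counts alone, and those of the second 40 and 13. These lists were chosen with results of these data known, and their counts are descriptions from which nothing particular to a list is read.

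Of 10 tested partners and other G protein regulators, 8 rose and 1 fell between intermediate and early, where 54.4% of all genes were called. Gpsm1, a G alpha i binding protein, rose from 2.43 ± 0.751 to 26.0 ± 2.68 CPM (log2 fold change 3.42 ± 0.21, edgeR adjusted p = 1.75e-08), while Gpsm2 of the same family fell by 0.76 ± 0.17 (edgeR adjusted p = 0.00197), a difference of -0.09 and no call with total counts alone. Rap1gap, which inactivates the GTPase Rap1 and binds G alpha subunits, rose from 103 ± 11.7 to 198 ± 3.81 CPM between intermediate and full (edgeR adjusted p = 1.13e-05), and beta-arrestin Arrb2 fell by 0.999 ± 0.11 between full and BEC (edgeR adjusted p = 2.60e-05). Of 14 proteins with an RGS homology domain outside the Rgs names, 6 rose and 1 fell between intermediate and early. The receptor kinase Grk5 rose from 12.01 ± 0.788 to 49.8 ± 4.73 CPM (2.05 ± 0.12, edgeR adjusted p = 1.43e-08), and Axin2, a Wnt target, fell from 13.7 ± 3.26 to 4.92 ± 1.62 CPM (edgeR adjusted p = 0.000694). Between full and intermediate 1 of the 14 rose (Grk5) and 1 fell (Grk3), where 40.7% of all genes were called. Between BEC and full 1 fell (Snx25), where 21.3% of all genes were called. The Grk5 call between full and intermediate ended without intermediate replicate 1, full replicate 2 or full replicate 3 (0.26 to 0.31). The Grk3 call there ended without intermediate replicate 2 or 3, full replicate 1 or 2 or BEC replicate 2 (-0.31 to -0.27). It also ended with DESeq2 (-0.27), RLE factors (-0.27), total counts alone (-0.11) and no filter (-0.30).

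Of 7 tested G alpha i, o and z genes, the substrates of many of the members, 2 rose and 2 fell between intermediate and early, a share called near the 54.4% of all genes. Gnaz, the substrate preferred by Rgs17 and Rgs20, had 2 counts over the early group and means of 2.28 ± 0.315, 7.67 ± 1.26 and 12.8 ± 3.62 CPM in intermediate, full and BEC, and rose between intermediate and full by 1.74 ± 0.26 (edgeR adjusted p = 0.000109). Gnai2 rose by 0.36 ± 0.11 between early and intermediate (edgeR adjusted p = 0.00954), from 233 ± 22.8 to 299.8 ± 19.8 CPM. Gnat1, a transducin, fell from 35.3 ± 8.69 to 3.11 ± 0.0377 CPM (edgeR adjusted p = 1.96e-08). Of the Gq class, Gna14 had 0 counts in early, a mean of 0.364 ± 0.224 CPM in intermediate, and rose to 10.2 ± 1.83 CPM in full and 19.8 ± 2.39 CPM in BEC (edgeR adjusted p = 4.95e-07 and 0.00696). Gnaq rose between early and intermediate (0.38 ± 0.10, edgeR adjusted p = 0.00716), and Gna11 fell (-0.25 ± 0.08, edgeR adjusted p = 0.0172), though with total counts alone Gna11 was higher by 0.41. The Gna11 call ended without early replicate 1 or 3 or intermediate replicate 1 or 3 (-0.24 to -0.22) and with no filter (-0.21). Gna12 fell in each of the 3 successive comparisons, from 145.6 ± 25.5 CPM in early to 41.9 ± 2.56 CPM in BEC, though the call between full and intermediate ended with total counts alone (-0.28). The Gna12 call between BEC and full (-0.36 ± 0.12) held without early replicate 1, early replicate 2 or full replicate 2. It ended without any other library (-0.41 to -0.30) and with RLE factors (-0.35).

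Of 11 tested effector genes, 5 rose and 1 fell between intermediate and early, near the 54.4% of all genes called, and 6 rose and 2 fell between full and intermediate, where 40.7% of all genes were called. Plcb4, a phospholipase C beta driven by Gq, rose from 0.327 ± 0.146 to 5.96 ± 3.44 and 42.8 ± 6.75 CPM (4.12 ± 0.52, edgeR adjusted p = 1.51e-05, then 2.86 ± 0.28, edgeR adjusted p = 3.26e-06), and Plcb1 fell from 16.6 ± 6.10 CPM in intermediate to 6.78 ± 3.06 in full and 1.25 ± 0.615 in BEC (edgeR adjusted p = 0.00888 and 0.000823). The adenylyl cyclase Adcy3 rose 6.34-fold between intermediate and full (2.66 ± 0.25, edgeR adjusted p = 1.89e-06), and Adcy9 fell by 0.34 ± 0.13 between early and intermediate, a difference of 0.33 in the other direction with total counts alone. The Adcy9 call held without intermediate replicate 3, full replicate 1, BEC replicate 1 or BEC replicate 2. It ended without any other library (-0.37 to -0.25) and with no filter (-0.29). Of 7 tested G beta and gamma genes, 4 rose and 1 fell between intermediate and early. Gng5 fell by 0.42 ± 0.08 there (edgeR adjusted p = 0.000838), a difference of 0.25 in the other direction with total counts alone, and Gng7 rose by 1.52 ± 0.22 between intermediate and full (edgeR adjusted p = 7.96e-05).

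Of 26 tested receptors, 8 rose and 6 fell between intermediate and early, 8 rose and 10 fell between full and intermediate, and 5 rose and 12 fell between BEC and full, beside 54.4%, 40.7% and 21.3% of all genes called. The secretin receptor Sctr, a Gs-coupled receptor of bile duct cells, had 1 count over the early group and means of 8.34 ± 6.71, 43.2 ± 11.5 and 107 ± 16.3 CPM in intermediate, full and BEC. Its log2 fold change between intermediate and full was 2.39 ± 0.38, and 3.26 without intermediate replicate 1. The Gi-coupled cannabinoid receptor Cnr1 rose from 0.167 ± 0.0793 to 13.1 ± 8.64 CPM between early and intermediate (edgeR adjusted p = 2.28e-06) and to 42.9 ± 2.30 CPM in full (edgeR adjusted p = 0.000708). The Cnr1 log2 fold changes were 6.23 ± 0.64 and 1.72 ± 0.32, and 5.58 and 2.38 without intermediate replicate 1. The vasopressin receptor Avpr1a fell from 40.8 ± 13.1 to 5.72 ± 0.212 CPM between early and intermediate (edgeR adjusted p = 2.49e-07). The glucagon receptor Gcgr and the adrenergic receptor Adra1b fell between intermediate and full, by 3.03 ± 0.19 and 3.07 ± 0.31 (edgeR adjusted p = 9.92e-08 and 4.50e-06). The thrombin receptor F2r separated the 2 Epcam+ groups, with 88.6 ± 13.3 CPM in full and 4.85 ± 0.402 CPM in BEC (edgeR adjusted p = 5.92e-10). P2ry2, a Gq-coupled nucleotide receptor, fell from 31.5 ± 4.38 to 5.21 ± 1.69 CPM between early and intermediate (edgeR adjusted p = 5.09e-07) and rose from 14.4 ± 3.73 in full to 61.9 ± 5.56 CPM in BEC (edgeR adjusted p = 7.35e-06).

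**Figure D5:**
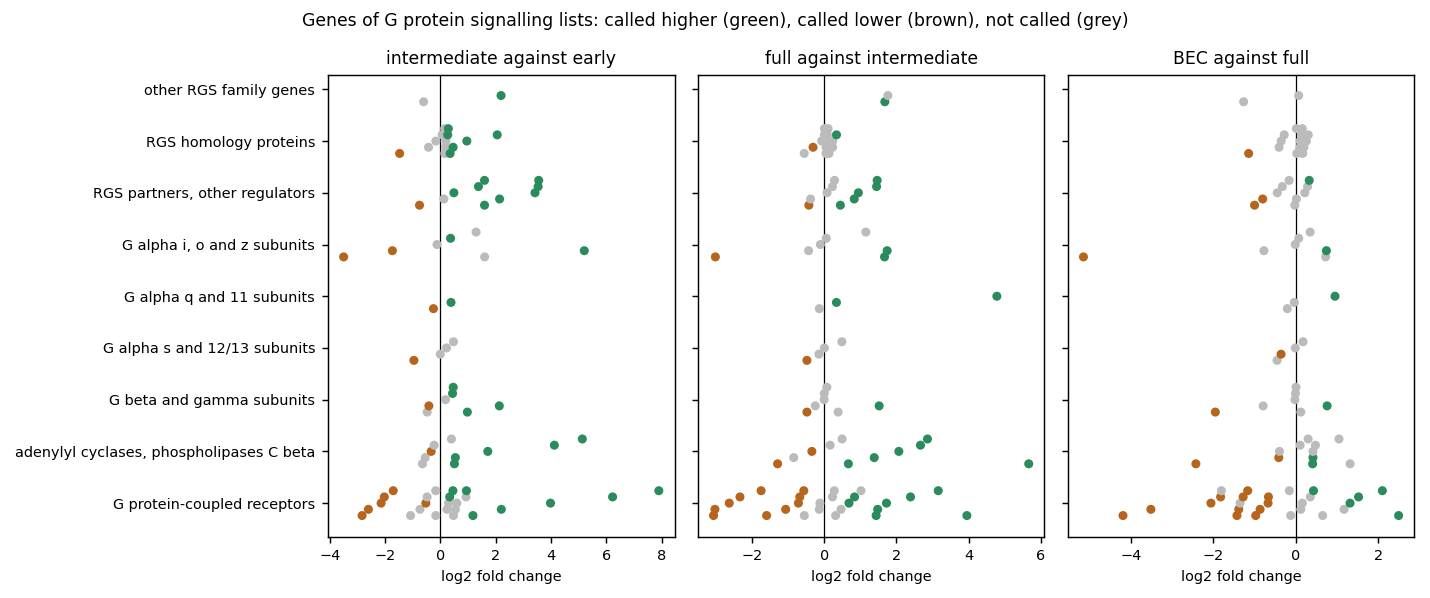
Log2 fold change (horizontal axis) of each tested gene of the G protein lists (rows), in the 3 successive comparisons, with called genes in green (higher) and brown (lower) and other genes in grey; genes with 0 counts in a group are left out, and those with few counts are at fitted values that depend on the prior count. Most called genes lie to the right from early to intermediate (36 higher, 14 lower, with Gna14 counted among the higher but not drawn), whereas Gna11, Gng5 and Adcy9 change side there with total counts alone, and more lie to the left from full to BEC (11 higher, 20 lower).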

How the data were processed

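Bulk RNA was sequenced from 4 sort gates of mouse liver, 3 libraries each. The authors deposited a table of raw read counts per gene, and per library a signal that equals the counts divided by 1 size factor. The submitters' processing notes name STAR 2.7.10b, featureCounts 2.0.1, DESeq2 and GRCm39, without role or order. Strand handling and read assignment are not given in the sources used here, so reads of overlapping genes (Mir3097 in Rgs12, Gm16041 in Rgs20) cannot be told apart from the member's.

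Libraries were grouped by their labels. The counts as deposited were fitted with edgeR 4.0.16 (filterByExpr, TMM, quasi-likelihood test, R 4.3.3) in 1 fit of all 12 libraries, with Benjamini-Hochberg adjustment over all genes tested and a threshold of 0.05. CPM used the TMM library sizes, and log2 CPM a prior count of 2. The signal values were used only to check that they derive from the counts. Replicates differed by more than sampling noise, with a chi-square per degree of freedom of 4.95 to 52.1. Intervals cover counting error only. The statistics were tested on simulated data. Alternatives were DESeq2 1.42.0, RLE factors, total counts alone, no filter, a mean of at least 50 counts, a replicate block, a fit of the 2 groups compared, leaving out each library, and the longest transcript as length.

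Members and lists were chosen with earlier results of these data known. From each list, the text names called genes among the 2 with the largest fold change per direction and comparison and a mean of at least 5 CPM in the higher group. It names the 3 genes most like a member among those of at least 10 CPM in their highest group, though fewer for Rgs10 and Rgs20. Marker genes and Rgs9 were named for their roles, and the CCAAT and TATA motifs were added after the sequences were seen. Same-numbered libraries deviated together between successive groups, with correlations of deviations of 0.121 to 0.293 for early and intermediate, 0.137 to 0.322 for intermediate and full and 0.170 to 0.257 for full and BEC. The lowest was below 0.1 in each other comparison. Promoters came from RefSeq (GRCm38.p6). Figures were drawn with matplotlib 3.10.9 in Python 3.11.15.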

Additional observations from a re-analysis of the deposited data

How the results depend on the processing

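The members' 60 pairwise differences had 1119 values under the alternatives, of which 1068 kept direction and side of the threshold, 23 lost a call, 13 gained one and 15 changed sign. The count of members called between BEC and full ranged from 2 to 6 when 1 library was left out. With total counts alone, intermediate against early turned to 0.28 for Rgs3, 0.41 for Gna11, 0.25 for Gng5 and 0.33 for Adcy9, and BEC against intermediate to 0.16 for Rgs5 and 0.0748 for Rgs16, and BEC against early to 0.22 for Rgs20. For Rgs5 that comparison with intermediate was 0.0123 with DESeq2 and with RLE factors, and -0.15 to 0.15 when 1 library was left out. Leaving out 1 library gave -0.49 to 0.13 for Rgs16 in BEC against intermediate, -1.37 to 0.50 for Rgs20 in BEC against early, -0.15 to 1.32 for Rgs2 in intermediate against early, -0.10 to 0.96 for Rgs10 in full against intermediate and -0.0547 to 0.54 for Rgs17 in BEC against full. Causes were not tested, beyond fewer samples in the fits that leave a library out. With the replicate number as a block, Rgs16 gained a call in BEC against full (0.67), which made 6 members called there, and no other member call changed. The filter of a mean of at least 50 counts gave no value for Rgs10 and Rgs20. Depth limits Rgs10, Rgs20 and all early values of Rgs4 and Rgs17.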
